A study of Mus musculus with 14 samples.

Results

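LepR+ stromal cells are the leptin receptor-expressing mesenchymal cells that surround the vessels of the bone marrow, and the cells described here are those of them that carried little immediate-early RNA when they were captured. They were taken from 1 wild-type (WT) and 1 PyMT single-cell library of sorted marrow stroma, with 1 library per genotype. A cell was kept if the authors had placed it in cluster 0, if it held at least 500 genes and under 10% mitochondrial transcripts, and if Fos, Fosb, Jun, Egr1, Atf3 and Ier2 together made up no more of its unique molecular identifiers (UMIs, each standing for 1 captured transcript) than in the median WT cell. That median was 2.25% of a cell's UMIs. The rule kept 1032 of 3219 LepR+ cells that passed the filters (489 of 977 WT and 543 of 2242 PyMT cells), out of 20913 cells in the stromal and progenitor libraries of the study.

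The PyMT label names a mouse strain in which the polyoma middle T antigen, made under a mammary promoter, gives rise to mammary tumours. The labels give neither the age of the mice, nor how many were pooled, nor the gates of the sort. A second comparison used here holds 8 bulk RNA libraries of marrow cells labelled as mesenchymal stem cells (MSC), 4 from tumour-free mice and 4 from mice bearing Py230 tumours, a mammary line that derives from a PyMT tumour. The study asks how a breast tumour that stays at its own site alters the marrow, and the selection asks what differs between the stromal libraries apart from the response to cell isolation.

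LepR+ cells make the chemokine CXCL12 and stem cell factor (Kitl), which hold blood stem cells in the marrow, and they give rise to marrow fat cells and bone-forming cells. Immediate-early genes encode transcription factors, among them the AP-1 subunits Fos and Jun, that are switched on within minutes of a signal without new protein synthesis. Freeing cells from tissue with enzymes at warm temperature is such a signal, so part of their RNA in a single-cell library can come from the preparation and part from the animal.

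The selected cells kept the RNA of their type. Cxcl12 was found in 489 of 489 WT and 541 of 543 PyMT cells, and Lepr in 468 and 537 of them. The 6 fixed markers (Lepr, Cxcl12, Adipoq, Hp, Grem1 and Esm1) summed to 30938 and 32195 counts per 1000000 UMIs (CPM) in the WT and PyMT cells. Cxcl12 alone gave 22791 and 23674 CPM of these sums. Adipoq (1970 and 880 CPM) and Esm1 (1476 and 1199 CPM) were lower in PyMT cells, and Lepr, Hp and Grem1 were higher. In a wider list of LepR+ identity genes, 4 of 24 were at least 1.5-fold lower and 2 higher, against 3.90% and 12.8% of all genes. Relative to the median gene these counts were 6 and 2. In the cells of clusters 1 to 4 chosen by the same share, Lepr stayed between 127 and 440 CPM, against 2169 and 3057 CPM here.

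Depth was similar in both libraries. The WT cells held 1990589 UMIs in all (median 3984 per cell, 1771 genes) and the PyMT cells 2432908 (median 4260, 2050 genes), with a median of 5.19% and 4.99% mitochondrial transcripts. Scrublet, a doublet caller, marked 3 of the selected WT cells and 0 of the PyMT cells. In all filtered stromal cells its calls made up 0.959% of the WT but 0.157% of the PyMT library, so it cannot be relied on in the latter. The libraries shared 2 cell barcodes, 0 of them among the selected cells. One annotation stood apart: Gm42418, a locus on chromosome 17 that overlaps ribosomal RNA sequence, took 7.29% of the WT and 2.88% of the PyMT UMIs, and it was lower in the PyMT library in clusters 1 to 4 as well. Over the 8980 genes compared (mean of at least 10 CPM), the median log2 ratio of PyMT to WT was 0.17 and 68.1% of genes lay above 0. When CPM were computed without Gm42418 and Lars2, 860 genes were at least 1.5-fold higher and 483 lower, against 1151 and 350 with them. Ratios below are given as measured and, for gene lists, also relative to that median.

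The 6 genes of the rule are given as a description only. Together they made up 0.711% of the UMIs of the median selected WT cell and 0.738% of the median selected PyMT cell, with quartiles of 0.186% and 1.58% in WT and 0.213% and 1.45% in PyMT cells. The cells left out had medians of 3.60% and 4.76%. Just inside the threshold lay a WT cell at 2.25% and a PyMT cell at 2.22%, and just outside cells at 2.25% and 2.26%; 79 selected cells (40 WT, 39 PyMT) and 107 cells left out (47 and 60) were within 10% of it. Fos was at 2679 CPM in WT and 2747 CPM in PyMT cells, Jun at 2102 and 2171 CPM, and Egr1 at 2123 and 2689 CPM. Fosb, at 1563 and 1125 CPM, was lower in PyMT cells, and Atf3, at 32.2 and 61.2 CPM, was higher. The threshold was passed by 50.1% of WT but 24.2% of PyMT cells (exact 95% interval 22.5 to 26.0%), so the selected PyMT cells are the smaller part of their library.

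**Figure D1:**
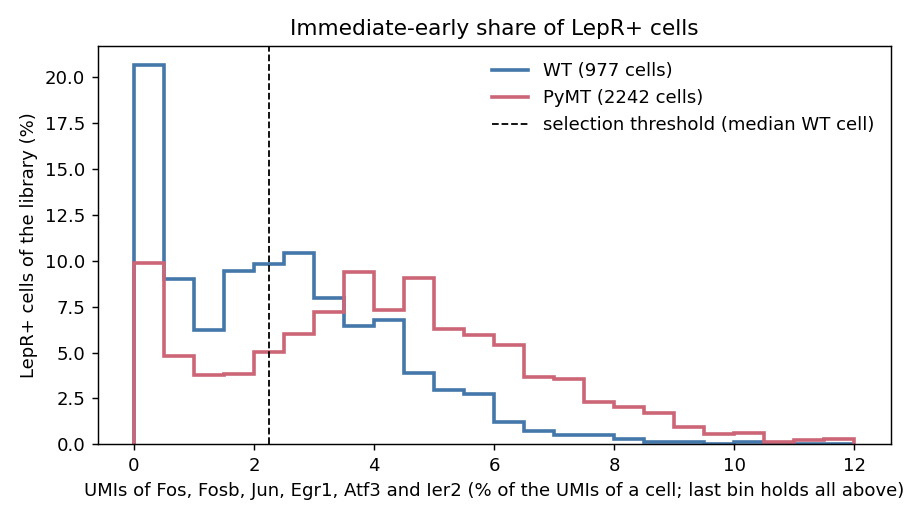
Share of a cell's UMIs that belong to the 6 immediate-early genes (x axis, percent) against the percent of LepR+ cells of each library (y axis), in steps of 0.5 percentage points; the dashed line is the threshold at 2.25%. The WT distribution has its highest bin at the left edge, and the PyMT distribution reaches further to the right, with 1699 of 2242 cells beyond the line.

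With the immediate-early share held to the same low range, 1151 of the 8980 genes compared (12.8%) were at least 1.5-fold higher in the PyMT library and 350 (3.90%) at least 1.5-fold lower. For 941 (10.5%) and 269 (3.00%) of the 8980 genes the counting interval also stayed clear of 0. Relative to the median gene the split turned round, with 558 higher (6.21%) and 683 lower (7.61%). There is no replicate library, so no gene was tested here, and every interval on a ratio is an exact 95% binomial interval that covers counting error only. The LepR+ cells above the threshold gave 858 genes higher (9.91%) and 400 lower (4.62%) of 8656 compared, 771 (8.91%) and 358 (4.14%) of them with an interval clear of 0.

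Secreted niche factors were lower relative to other genes. Of 29 compared, 8 were at least 1.5-fold lower in PyMT cells and 3 at least 1.5-fold higher, against 3.90% and 12.8% of all genes. Relative to the median gene these counts were 10 and 2. The median log2 ratio of the list was −0.27, which is 0.44 below that of all genes. Bmp4, a growth factor of the TGF-beta superfamily (chromosome 14, 46383520 to 46390669, minus strand, GRCm38), was at 347 CPM in WT and 137 CPM in PyMT cells, a log2 ratio of −1.34 (−1.53 to −1.15). It was present in 252 of 489 WT and 163 of 543 PyMT cells. After every cell was thinned to 2000 UMIs, Bmp4 was found in 37.8% of 429 WT and 17.1% of 491 PyMT cells (60 and 52 shallower cells left out). In all cells of cluster 3, whatever their share, it was found in 13.2% of 38 WT and 2.17% of 92 PyMT thinned cells. Sinusoidal endothelial markers summed to 8876 and 8941 CPM in the 50 WT and 80 PyMT cells of cluster 3 at or below the threshold. Without thinning, 51.5% and 30.0% of the selected cells held Bmp4, at median depths of 3984 and 4260 UMIs against 2750 and 3550 in cluster 3. The shares in cluster 3 rest on 5 WT and 2 PyMT cells with Bmp4, so they are no firm measure of free RNA.

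The other lower niche factors act on several blood lineages. Il7, which lymphoid progenitors need, was at 137 and 88.4 CPM (−0.63, −0.90 to −0.37). Igf1, a growth factor, was at 484 and 314 CPM (−0.63). Il34, a ligand of the macrophage receptor CSF1R, was at 181 and 101 CPM (−0.84). The second CSF1R ligand, Csf1, had a smaller ratio (−0.42), as did the adhesion molecule Vcam1 (−0.32) and the TAM receptor ligand Gas6 (−0.47). Il15, which natural killer cells need, was at 38.2 and 21.4 CPM (−0.84, −1.37 to −0.31). The secreted factors Angptl1 (−0.71), Angptl4 (−0.87) and Rarres2 (−0.65) were also at least 1.5-fold lower.

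The 2 factors best known for holding stem cells were not among them. Cxcl12 was at 22791 and 23674 CPM, a log2 ratio of 0.05 that becomes −0.12 when measured from the median gene. Kitl was at 1977 and 2493 CPM (0.33, 0.28 to 0.39) and Lepr at 2169 and 3057 CPM (0.49, 0.44 to 0.55), both above the median gene. Angpt1, a ligand of the receptor TIE2, had a log2 ratio of −0.02 (−0.21 to 0.18), and Fgf7 one of 0.00. Higher niche factors were Vegfa, the vascular growth factor (256 and 470 CPM, 0.88), Pros1 (0.72) and Tgfb3 (43.7 and 91.7 CPM, 1.07).

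**Figure D2:**
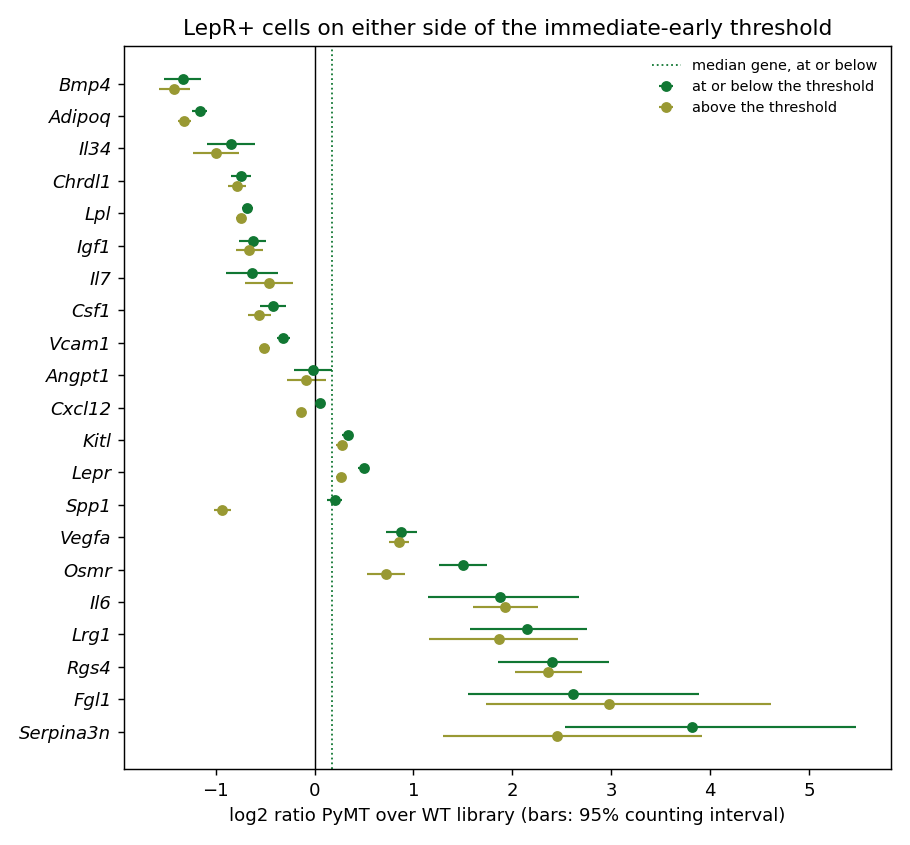
Log2 ratio of PyMT to WT (x axis) for niche factors, markers and IL-6 family genes in LepR+ cells at or below the immediate-early threshold (dark green) and above it (olive); bars are exact 95% counting intervals and the dotted line marks the median gene of the selected cells at 0.17. Bmp4 lies near −1.4 on both sides of the threshold, Osmr has the higher ratio in the selected cells (1.5 against 0.72), and Spp1 lies on opposite sides of 0.

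Genes of the fat lineage were lower together with these factors. Of 19 compared, 8 were at least 1.5-fold lower and 1 higher, against 3.90% and 12.8% of all genes. Relative to the median gene the counts were also 8 and 1. The list had a median of −0.20 (0.38 below all genes). Adipoq, the fat hormone adiponectin and a marker of marrow LepR+ cells, was at 1970 and 880 CPM (−1.16, −1.24 to −1.09). It was found in 87.6% of thinned WT and 64.6% of thinned PyMT cells (89.8% and 77.9% unthinned), against 10.5% and 4.35% in cluster 3. Lpl, lipoprotein lipase, was at 3560 and 2222 CPM (−0.68), and the fatty acid carrier Fabp4 at 104 and 44.4 CPM (−1.24, −1.58 to −0.89). The carrier's UMIs were concentrated, with 40.4% of the WT UMIs in 5 cells. Cebpb and Cebpd, early regulators of fat cell formation, were near the median gene (0.13 and 0.21 against 0.17). Zfp423 was at 26.6 and 46.4 CPM (0.80, 0.32 to 1.30).

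Genes of BMP signalling differed in both directions. Chrdl1, a secreted BMP antagonist, was at 936 and 558 CPM (−0.75, −0.85 to −0.64), and Fst, which binds activins, at 497 and 321 CPM (−0.63). Grem1, another antagonist and one of the 6 markers, was at 437 and 468 CPM (0.10). The receptors Acvr2a (−0.65) and Acvr1 (0.53) differed in opposite directions. Id4, a BMP-responsive gene, was at 337 and 547 CPM (0.70). In all, 4 of 25 genes of the BMP list were at least 1.5-fold higher and 5 lower, against 12.8% and 3.90% of all genes. Relative to the median gene these counts were 2 and 7. The list had a median of −0.13.

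Bone-lineage genes past 1.5-fold were mostly lower. Of 23 compared, 9 were at least 1.5-fold lower and 2 higher, against 3.90% and 12.8% of all genes. Relative to the median gene these counts were 10 and 2. The list had a median of −0.11 (0.29 below all genes). Ogn (osteoglycin, a small matrix proteoglycan) was at 1023 and 342 CPM (−1.58, −1.70 to −1.46), Phex, a protease-like regulator of phosphate, at 219 and 96.2 CPM (−1.19), and Alpl, alkaline phosphatase, at 134 and 57.5 CPM (−1.22). Col1a1, the type I collagen chain, was at 433 and 737 CPM (0.77). The mature osteoblast gene Bglap (osteocalcin) was at 52.7 and 3.29 CPM, but 68.6% of its WT UMIs lay in 5 cells, and its log2 ratio of −4.00 became −1.68 without the cells that held 2 or more pericyte or osteoblast UMIs. Spp1, osteopontin, was at 1213 and 1395 CPM (0.20), and 5 cells held 55.1% of its PyMT UMIs.

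Genes of the IL-6 family and its STAT3 targets were higher as a group, with a median of 0.45 (0.28 above all genes). Of 26 compared, 11 were at least 1.5-fold higher and 1 lower, against 12.8% and 3.90% of all genes. Relative to the median gene these counts were 9 and 1. In this family a ligand binds its own receptor, which pairs with the shared chain gp130 and activates the transcription factor STAT3. Osmr, the receptor of oncostatin M (chromosome 15, 6813577 to 6874969, minus strand, GRCm38), was at 95.4 CPM in WT and 269.6 CPM in PyMT cells (log2 ratio 1.5, 1.26 to 1.74). Osmr RNA was found in 140 of 489 WT and 329 of 543 PyMT cells, and in 16.6% and 38.5% of thinned cells (28.6% and 60.6% unthinned). In cluster 3, which also expresses Osmr, those shares were 36.8% and 41.3%. The shared chain Il6st (0.26) was near the median gene, and the receptor Il11ra1 was lower (−0.89).

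Secreted acute-phase proteins belong to this list. Lrg1, a leucine-rich glycoprotein, was at 15.1 and 66.6 CPM (2.14, 1.57 to 2.76). Serpina3n, a secreted protease inhibitor, was at 2.51 and 35.3 CPM (3.81, 2.54 to 5.47) from 5 WT and 86 PyMT UMIs. Fgl1, a fibrinogen-like secreted protein, was at 4.02 and 24.7 CPM (2.62, 1.55 to 3.89). These differences came from few cells: Serpina3n was found in 5 WT and 50 PyMT cells, Fgl1 in 8 and 49, and Lrg1 in 20 and 85. Socs3, the feedback inhibitor that STAT3 switches on, was lower, at 884 and 729 CPM (−0.28, −0.37 to −0.18). In the same list Hp, haptoglobin, was at 2095 and 2917 CPM (0.48).

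The ligand Il6 itself was scarce in these cells and is given with its promoter. It was at 9.54 CPM in WT and 34.9 CPM in PyMT cells, from 19 and 85 UMIs (1.87, 1.14 to 2.67). Only 11 WT and 19 PyMT cells held any, and 5 cells held 57.6% of the PyMT UMIs. In the cells at or below the lower quartile of the WT share there were 3 WT and 2 PyMT UMIs, and the log2 ratio was −0.75 (−4.33 to 2.37). Between that quartile and the threshold there were 16 and 83 UMIs (1.97, 1.18 to 2.84). The interval of the ratio thus excluded 0 in the upper of the 2 selected bins and not in the lower. After thinning, 1.17% of WT and 2.65% of PyMT cells held an Il6 UMI (2.25% and 3.50% unthinned), against 4.93% and 11.4% of the cells above the threshold and 0% and 3.26% in cluster 3 (0 of 38 cells, which allows a share of up to 7.89%).

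Because the genes of the rule include the AP-1 subunits Fos, Fosb and Jun, promoters were searched for the AP-1 motif TGANTCA (N is any base). An NF-kB motif was searched too, GGGA and TCC with 3 bases of any kind between them. The search covered both strands of the bases just before the start of Il6 and of Mmp13, a collagenase that was higher in PyMT cells. The sequences are RefSeq's for GRCm38.p6, both on the plus strand, 250 bases up to the base before the start, at chr5:30012864-30013113 for Il6 and chr9:7272264-7272513 for Mmp13, with motif matches in capitals.
Il6: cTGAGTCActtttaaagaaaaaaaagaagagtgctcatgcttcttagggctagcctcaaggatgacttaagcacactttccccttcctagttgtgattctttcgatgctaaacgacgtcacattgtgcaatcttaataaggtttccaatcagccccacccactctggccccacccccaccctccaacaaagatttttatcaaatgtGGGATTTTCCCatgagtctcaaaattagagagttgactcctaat
Mmp13: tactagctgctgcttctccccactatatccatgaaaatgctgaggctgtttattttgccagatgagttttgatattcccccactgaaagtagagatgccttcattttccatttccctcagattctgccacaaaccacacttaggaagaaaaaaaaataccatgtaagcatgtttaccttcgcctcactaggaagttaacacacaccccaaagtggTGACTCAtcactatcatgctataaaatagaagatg

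Il6 held an AP-1 match 249 to 243 bases before its start and a pair of overlapping NF-kB matches between 44 and 34 bases before it. The promoter of Mmp13 held an AP-1 match 35 to 29 bases before the start. Among promoters of the genes compared, 3.93% held the AP-1 motif in this window and 4.45% the NF-kB motif (6.75% and 3.86% of all 32851 promoters in the table). Of the promoters of genes at least 1.5-fold higher in PyMT cells 3.95% held the AP-1 motif, and of those at least 1.5-fold lower 7.51%. The NF-kB motif was in 5.71% and 4.20% of them. A match describes letters and not bound protein.

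Matrix-remodelling genes differed in both directions. Of 24 proteases and inhibitors compared, 7 were at least 1.5-fold higher and 3 lower, against 12.8% and 3.90% of all genes. Their median was 0.40 (0.23 above all genes), with 9 of 24 below the median gene. Mmp13 was at 715 and 1971 CPM (1.46, 1.38 to 1.55), and 5 cells held 40.5% of its WT UMIs. Without cells that held 2 or more pericyte or osteoblast UMIs its log2 ratio was 2.10. Mmp9, the gelatinase, was at 7.03 and 32.1 CPM (2.19, 1.36 to 3.12), found in 10 WT and 49 PyMT cells. The aggrecanase Adamts5 was at 276 and 489.5 CPM (0.83), and the inhibitor Serpine2 at 2535 and 4487 CPM (0.82). On the other side stood A2m, alpha-2-macroglobulin, a broad protease trap (128 and 29.2 CPM, −2.13), the inhibitor Timp4 (23.6 and 5.34 CPM, −2.14) and the disintegrin protease Adamdec1 (37.2 and 5.75 CPM, −2.69, −3.63 to −1.86). Without cells that held 2 or more pericyte or osteoblast UMIs, A2m was at −1.32.

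Among matrix proteins 9 of 43 were at least 1.5-fold higher and 4 lower, against 12.8% and 3.90% of all genes. Their median was 0.17, like that of all genes. Relative to the median gene the split turned to 5 higher and 7 lower. Mgp, matrix Gla protein, an inhibitor of calcification, was at 3074 and 7237 CPM (1.23, 1.19 to 1.28) and present in 400 of 489 and 538 of 543 cells. Has2, which makes hyaluronan, was represented by 2 UMIs in WT cells and by 74 UMIs in 40 PyMT cells (log2 ratio 4.92, 3.02 to 7.99). Col12a1 (1.02) and the laminin chain Lama4 (1.09) were higher too, and Tnc, tenascin C, was lower (−0.52). TGF-beta response genes had 8 of 25 at least 1.5-fold higher and 0 lower, against 12.8% and 3.90% of all genes. Relative to the median gene these counts were 5 and 1, and the list median was 0.33 (0.15 above all genes). Among the higher genes were Ccn2, connective tissue growth factor (340 and 753 CPM, 1.15), and Tagln, transgelin (15.1 and 44.8 CPM, 1.57). Ccn2 is also on the list of other immediate-early genes. In the bulk libraries 3 of 26 rose and 3 fell by edgeR, against 1.99% and 2.74% of all genes tested there. Ccn2 (−0.24) and Tagln (−0.11) did not pass.

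Several other named genes had wide ratios. Ugcg, which makes the first glycosphingolipid, glucosylceramide (chromosome 4, 59189257 to 59222833, plus strand, GRCm38), was at 103 and 442 CPM (2.10, 1.89 to 2.33) and present in 142 WT and 364 PyMT cells. Rgs4, an inhibitor of G protein signalling, was at 16.1 and 84.7 CPM (2.40, 1.85 to 2.98), and its relative Rgs20 at 15.1 and 34.1 CPM (1.18). Rgs5, a pericyte gene, was at 6.03 and 109 CPM (4.18), with 52.5% of its PyMT UMIs in 5 cells. Hpgd, which inactivates prostaglandins, was at 56.3 and 188 CPM (1.74), and the retinoic acid-making enzyme Aldh1a2 at 291 and 757 CPM (1.38). Lower at this end were Adh1, an alcohol dehydrogenase that also handles retinol (69.8 and 10.7 CPM, −2.71, −3.37 to −2.10), and the matrix protein Efemp1 (285 and 103 CPM, −1.47). In the retinoid and xenobiotic list 2 of 15 genes were at least 1.5-fold higher and 6 lower, against 12.8% and 3.90% of all genes. The list had a median of −0.35, 0.52 below all genes, and 12 of 15 were below 0.

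Stress genes outside the rule are induced by the same signals as its 6 genes, so their values are not independent of the selection. The other immediate-early genes had a median log2 ratio of 0.14 in the selected cells, 0.04 below that of all genes, and of 0.41 above the threshold, where all genes had 0.12. Of 37 compared in the selected cells, 7 were at least 1.5-fold higher and 0 lower, against 12.8% and 3.90% of all genes. Relative to the median gene these counts were 5 and 0. The higher genes included the nuclear receptors Nr4a1 (81.9 and 151 CPM, 0.89) and Nr4a3 (5.53 and 19.3 CPM, 1.81). Heat shock genes had a median of 0.17 in the selected cells, the same as all genes, and 0.65 above the threshold. Even so, 6 of 21 were at least 1.5-fold higher in the selected cells and 0 lower, against 12.8% and 3.90% of all genes. All 6 had an interval clear of 0. Relative to the median gene the counts were 3 and 0. The inducible chaperone Hspa1a still differed, at 76.9 and 189 CPM (1.30), but in the lowest bin of the share its log2 ratio was 0.45 (0.04 to 0.86). Across NF-kB and chemokine genes, 3 of 27 were at least 1.5-fold higher and 3 lower (median 0.25), against 12.8% and 3.90% of all genes. Relative to the median gene these counts were 1 and 5. The chemokine gene Ccl7 was at 66.3 and 26.3 CPM (−1.33), and this turned to 0.10 when each library was cut at its own median share.

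**Figure D3:**
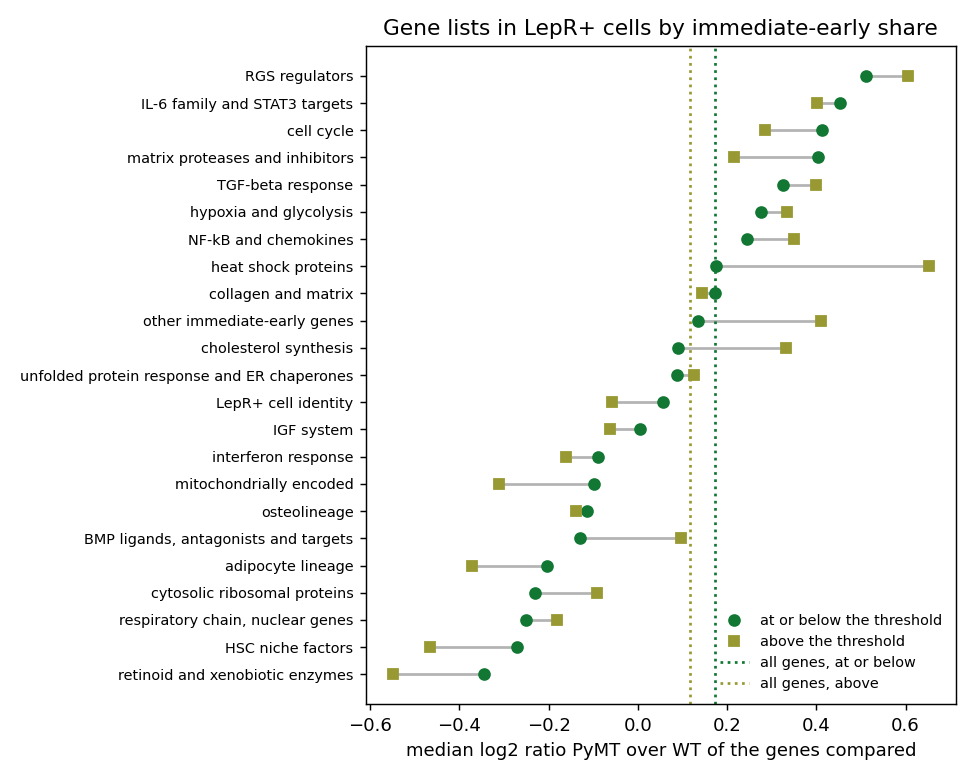
Median log2 ratio of PyMT to WT for each gene list in the selected cells (green circles) and in LepR+ cells above the threshold (olive squares), with the medians of all genes as dotted lines (0.17 and 0.12). Heat shock and other immediate-early genes lie on or near the line of all genes in the selected cells and to its right above the threshold, whereas the IL-6 family stays to the right of the line in both (0.45 and 0.40) and niche factors to its left (−0.27 and −0.47).

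Genes of the respiratory chain and the ribosome were lower relative to other genes. The 74 nuclear genes of the respiratory chain had a median of −0.25, with 65 of them below the median gene. Of the 74, 7 were at least 1.5-fold lower and 0 higher, against 3.90% and 12.8% of all genes. The lower genes included Ndufa5 (159 and 89.2 CPM, −0.83) and Uqcrh (272 and 165 CPM, −0.72). The 80 cytosolic ribosomal protein genes had a median of −0.23, with 76 of them below the median gene. Of the 80, 4 were at least 1.5-fold lower, near the 3.90% of all genes, and 0 higher, against 12.8% of all genes. Above the threshold their median was −0.09, where all genes had 0.12. In the bulk libraries it was 0.00083, and 0 of 81 rose or fell by edgeR, where 1.99% of all genes tested rose and 2.74% fell. Interferon-response genes had a median of −0.09 with 31 of 39 below the median gene: the class I antigen-presentation genes H2-K1 (−0.48) and H2-D1 (−0.44) were lower, and Ifitm1 (1.38) and Irf8 (1.13) were higher. Hypoxia and glycolysis genes went the other way, with a median of 0.28, which is 0.10 above all genes. Of 29 compared, 6 were at least 1.5-fold higher and 0 lower, against 12.8% and 3.90% of all genes. Relative to the median gene these counts were 4 and 0. Among the higher genes were the vasodilator peptide gene Adm (33.2 and 78.9 CPM, 1.25) and Bhlhe40 (40.7 and 103 CPM, 1.34). Unfolded protein response genes had 0 of 24 past 1.5-fold in either direction, where 12.8% of all genes were higher and 3.90% lower.

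To see whether the differences moved with the share itself, LepR+ cells were divided at the quartiles of the WT share into 4 bins, of which the first 2 make up the selected cells. Bmp4 had log2 ratios of −1.53, −1.14, −1.41 and −1.37 from the lowest to the highest bin, and Adipoq −1.28, −1.04, −1.26 and −1.18. Neither gene showed an order along the share. Chrdl1 lay between −0.79 and −0.62. The ratio of Osmr was 1.57 and 1.43 in the selected bins but 0.57 and 0.78 in the bins above. Its WT level was 91.1 CPM in the lowest bin and 152 and 148 CPM in the bins above the threshold, and its PyMT level lay between 225 and 270.5 CPM. Ugcg also had its higher ratios in the selected bins, at 2.31, 1.90, 1.40 and 1.61. Spp1 had ratios of −0.09, 0.37, −1.10 and 0.02, with no order along the share. Between the 2 sides of the threshold these differences were not tested, since each rests on the same pair of libraries.

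**Figure D4:**
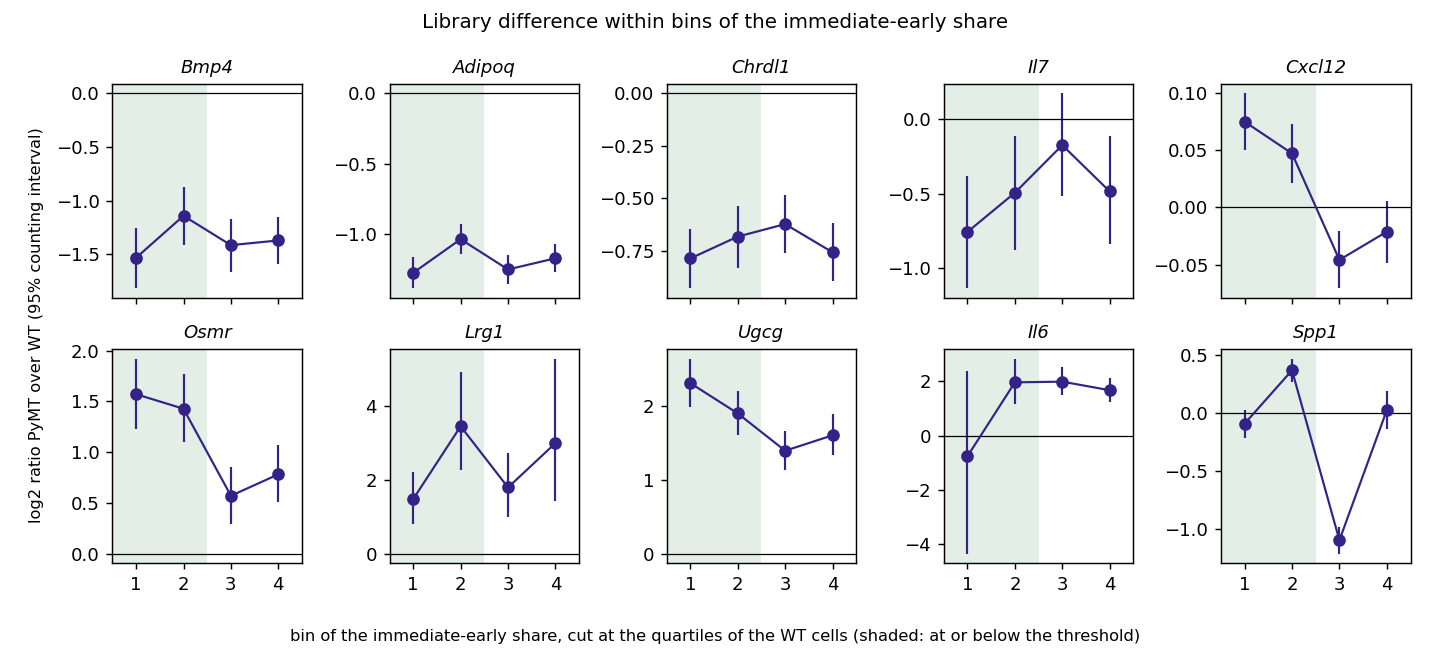
Log2 ratio of PyMT to WT (y axis, each panel with its own scale) for 10 genes in 4 bins of the immediate-early share cut at the quartiles of the WT cells (x axis, lowest to highest; the shaded bins are the selected cells); bars are exact 95% counting intervals. Bmp4, Adipoq and Chrdl1 are below 0 in all 4 bins, Osmr, Lrg1 and Ugcg are above 0 in all 4, and the interval of Il6 in the lowest bin runs from −4.33 to 2.37.

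The same share was applied to the other stromal clusters of these libraries, 4 of which held at least 50 such cells in each library. Bmp4 was not lower in clusters 1 and 2, where tendon and fibroblast markers summed to at least 15814 CPM each in cluster 1 and fibroblast markers to at least 30828 CPM in cluster 2 (log2 ratio 0.21, −0.11 to 0.52, and 0.58, 0.31 to 0.84). In cluster 3 it was lower (−3.16, −6.41 to −0.89) on 9 WT and 2 PyMT UMIs. Lpl was not lower in clusters 1 and 2 either (0.43 and 0.13), and Ogn, with 1355 to 3309 UMIs per library, had ratios of −0.11 and −0.06. Efemp1 was higher in these clusters (1.38 and 0.40). Adipoq was lower in the PyMT library in clusters 1 to 4, as it was in the selected cells, though at far lower levels. It was at 28.4 and 17.1 CPM in cluster 1 (−0.74, −1.53 to 0.00), 22.2 and 8.54 CPM in cluster 2 (−1.38, −2.45 to −0.45) and 133 and 35.3 CPM in cluster 3 (−1.91, −3.18 to −0.74). In cluster 4 it rested on 5 WT and 2 PyMT UMIs. In clusters 1 and 2 Osmr had ratios of −0.12 and 0.68, and Ugcg of 0.49 and 0.51, against 1.5 and 2.10 in the selected cells. Serpina3n was lower in both (−0.71 and −0.65), opposite to the selected cells. Lepr (0.68 and 0.90) and Bhlhe40 (0.84 and 0.81) were higher in these clusters as they were in the selected cells, and Rarres2 was lower (−0.42 and −0.65). Bhlhe40 (0.91 and 0.93), Lepr (0.32 and 0.68) and Rarres2 (−2.08 and −2.39) had ratios of the same sign in clusters 3 and 4. Ratios of Lpl, Ogn, Efemp1, Osmr, Ugcg and Serpina3n in clusters 3 and 4 are not given here. No difference between clusters was tested.

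The bulk MSC libraries are independent of the rule and come from another tumour model, so they give the one replicated test. They were not selected for a low immediate-early share, so that test does not address the low state. The 6 selection genes together summed to 8812 CPM in the selected WT and 9040 CPM in the selected PyMT cells. In bulk, Fosb alone had means of 8208 CPM (control) and 8765 CPM (Py230), and Jun of 7453 and 7392 CPM. The assays differ, and these levels were not tested against each other. The bulk libraries held 4301375 to 9811251 counted reads. The labels do not say whether the libraries came from separate mice, so the p-values measure the spread between libraries only. By edgeR's quasi-likelihood test with Benjamini-Hochberg adjustment, 324 of 16317 genes rose with Py230 tumours (1.99%) and 447 fell (2.74%). Of the 6 selection genes, 0 passed edgeR and 0 passed DESeq2. Ier2 alone had an unadjusted edgeR p below the threshold (log2 change 0.31, unadjusted p = 0.0448). Its edgeR adjusted p was 0.293. Fos was at 6396, 6145, 5968 and 5272 CPM in the control libraries and at 5811, 5804, 5528 and 5308 CPM in the Py230 libraries (adjusted p = 0.802). Its ranges overlapped.

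Genes that differed in the selected cells were called more often in the bulk libraries than genes at large, and mostly in the same direction. Of the 334 tested genes that were at least 1.5-fold lower in the selected cells, 77 fell in bulk (23.1%) and 0 rose; 4.35% of the 8855 genes measured in both fell. DESeq2 also gave 0 risers among them, and 13 had an unadjusted p below the threshold in that direction. Of the 1126 that were at least 1.5-fold higher, 118 rose (10.5%) and 16 fell (1.42%), where 2.71% of the 8855 rose. Taken from the bulk side, 49.2% of its 240 risers and 77 of its 385 fallers among these genes were past 1.5-fold the same way in the selected cells. Relative to the median gene of the cells, 657 tested genes were at least 1.5-fold lower. Of these, 109 fell in bulk (16.6%) and 4 rose (6 by DESeq2). Of the 542 at least 1.5-fold higher by that measure, 86 rose (15.9%) and 7 fell. The cells and the bulk libraries share no control, but the tumour models differ and no test of the overlap was made.

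Bmp4 fell in bulk. It was at 197, 225, 178 and 150 CPM in the controls and at 34.5, 36.2, 57.0 and 43.7 CPM with Py230, ranges that do not overlap (log2 change −2.12, SE 0.17, adjusted p = 4.29e-05). Adipoq went from 789, 680, 587 and 597 CPM to 115, 221, 264 and 210 CPM (−1.71, SE 0.22, adjusted p = 0.0014), again without overlap. Il7 (−1.48), Igf1 (−1.72), Il34 (−1.03), Chrdl1 (−1.85), Lpl (−1.41), Ogn (−1.60), Efemp1 (−1.52), Phex (−1.90), Adh1 (−2.38) and Adamdec1 (−2.43) all fell, with adjusted p from 4.29e-05 to 0.0127. Each of these 12 calls was kept when any 1 library was left out.

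Osmr rose in bulk, from 241, 291, 301 and 338 CPM to 664, 575, 525 and 499 CPM (0.95, SE 0.12, adjusted p = 0.000764). Its control and Py230 ranges do not overlap. Lrg1 went from 1.56, 2.83, 2.40 and 2.32 CPM to 21.6, 14.7, 11.5 and 6.57 CPM (2.58, SE 0.35, adjusted p = 0.00112), and Fgl1 from 2.99, 1.66, 1.01 and 5.96 CPM to 21.1, 21.6, 17.7 and 22.2 CPM (2.82, SE 0.38, adjusted p = 0.00132). Rnf150 (1.71), Hpgd (1.05), Mgp (2.53), Mmp13 (0.67), Vegfa (0.89), Rgs20 (1.48), the matricellular gene Ccn5 (1.54) and Aebp1 (0.90) rose as well, with adjusted p from 6.79e-05 to 0.00446. Ccn5 and Aebp1, a matrix-binding protein, had ratios of 1.49 and 1.57 in the selected cells, and the ubiquitin ligase Rnf150 one of 2.08. None of these 11 calls was lost when any 1 library was left out.

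Other risers in bulk rested on more variable libraries. Serpina3n was at 3.38, 2.66, 6.18 and 1.89 CPM in the controls and at 299, 69.5, 38.6 and 41.0 CPM with Py230 (4.93, SE 0.99, adjusted p = 0.0472). That call was kept only without Py230 replicate 1 and was lost when any other library was left out (adjusted p up to 0.168). Rgs4 (1.64, adjusted p = 0.0462) lost its call without control replicate 1 or 3 or Py230 replicate 1, 2 or 3 (up to 0.167). Has2, whose ranges overlap (1.62, adjusted p = 0.0339), lost it without control replicate 1, 2 or 4 or Py230 replicate 1, 2 or 4 (up to 0.109). Ugcg rose from 97.8, 134, 141 and 193 CPM to 838, 509, 327 and 367 CPM (1.85, SE 0.33, adjusted p = 0.0191), a call lost without Py230 replicate 2 (0.0551). Hspa1a rose too (1.05, adjusted p = 0.0217), and its call was lost without control replicate 1 or 3 or Py230 replicate 1, 2 or 4 (up to 0.0801).

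Some genes differed in one setting and not in the other. Cxcl12 fell in bulk, from 18564 to 22079 CPM in the controls to 8131 to 11854 CPM with Py230 (−0.95, SE 0.13, adjusted p = 0.0012), while it was at 0.05 in the selected cells. Angpt1 (−1.12) and Fgf7 (−0.72) fell in bulk as well and were at −0.02 and 0.00 in the selected cells. So did Cebpb (−0.45, edgeR adjusted p = 0.0457) and Cebpd (−0.52, edgeR adjusted p = 0.0367), which were at 0.13 and 0.21 in the selected cells. Kitl and Lepr did not pass the test in bulk (−0.18 and −0.21, adjusted p = 0.417 and 0.368). Adamts5 (−0.73) and the cholesterol enzyme gene Hsd17b7 (−0.80) fell in bulk but were higher in the selected cells (0.83 and 0.87). Il6 did not pass in bulk (−0.46, adjusted p = 0.348), with 77.0 to 107 CPM with Py230 inside the control range of 88.5 to 174 CPM except for its lowest library. Whether the settings differ was not tested, as they differ in tumour model and assay and their sort gates were not stated.

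**Figure D5:**
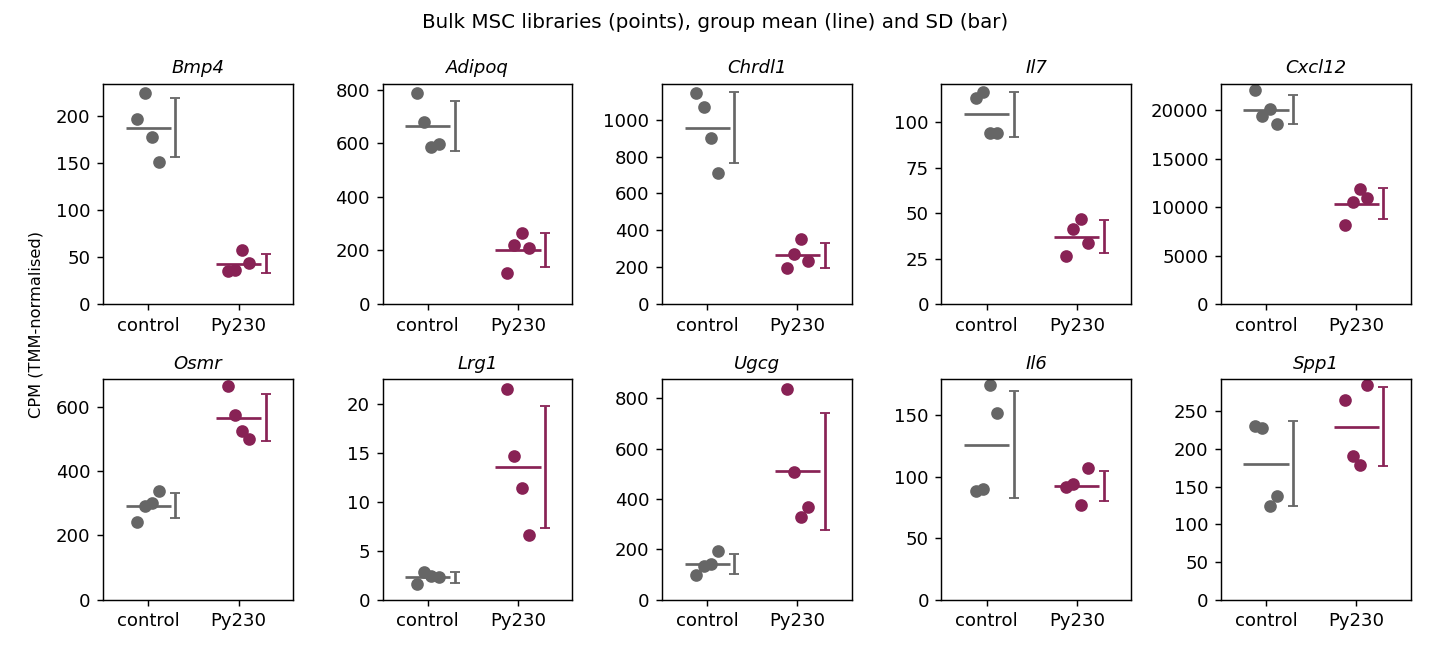
CPM (y axis, from 0, each panel with its own scale) of 10 genes in the 8 bulk MSC libraries, 4 tumour-free controls (grey) and 4 with Py230 tumours (purple); points are libraries, lines group means and bars the SD. Bmp4, Adipoq, Chrdl1, Il7 and Cxcl12 lie lower and Osmr, Lrg1 and Ugcg higher in every Py230 library than in any control, and Il6 and Spp1 overlap.

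Of all genes tested in bulk, 2.74% fell and 1.99% rose by edgeR. As lists, niche factors had 12 of 32 members fall and 1 rise in bulk (median −0.61), and fat-lineage genes 9 of 27 fall. No fat-lineage gene rose by edgeR or by DESeq2, and 0 had an unadjusted p below the threshold in that direction. Hypoxia genes had 7 of 34 rise (median 0.32). The IL-6 family had 7 rise and 7 fall of 34 (median 0.05), so its list did not move one way in bulk. Osmr, Lrg1, Serpina3n and Fgl1 were among its risers. Socs3 was among its fallers (log2 change −0.75, edgeR adjusted p = 0.00516), with ranges that do not overlap. Cholesterol synthesis genes had a median of −0.48 in bulk and of 0.09 in the selected cells. These lists were written with results of the same files known.

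Summed markers of several other cell types differed between the libraries in the selected cells. Pericyte and smooth muscle markers summed to 261 CPM in WT and 543 CPM in PyMT cells, with 1 of 11 at 0 in each library, all 5 that could be compared were higher, and Notch3, found in 213 of 489 WT cells, made up most of the sum (176 and 290 CPM). Osteoblast markers summed to 6823 and 4252 CPM, nearly all of it Ibsp (6696 and 4211 CPM). Erythroid markers summed to 209 and 109 CPM, with Hbb-bs at 97.0 and 44.0 CPM. Markers of blood cells other than erythroid and B cells, whose most abundant gene Ebf1 was found in 477 of 489 WT cells, reached at most 73.6 CPM per list, and T and NK cell markers 2.06 CPM. Without cells that held 2 or more UMIs of defining pericyte or osteoblast genes (474 WT and 535 PyMT cells left), 1158 genes were at least 1.5-fold higher and 354 lower. Of 222 named genes, 16 then had a ratio outside the counting interval of the full selection, among them Bglap, A2m and Mmp13 as given above and Alpl (−0.78) and Spp1 (0.69).

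In bulk, markers of monocytes and macrophages summed to 54.6 to 65.5 CPM in the controls and 66.9 to 113 CPM with Py230, and the 6 LepR+ markers to 25265 to 29597 CPM and 13507 to 17217 CPM. Cxcl12 made up most of the latter sum (means 20064 and 10375 CPM). Lepr and Hp did not pass edgeR (adjusted p = 0.368 and 0.602). Neither pair of summed ranges overlaps, nor do those of the megakaryocyte markers (8.96 to 11.6 and 12.3 to 17.2 CPM) and the 2 B cell markers. In these bulk samples fewer cells of a type and less RNA per cell cannot be told apart. Fibroblast markers had medians of 317 CPM in the controls and 639.5 CPM with Py230 and overlapped (197 to 501 and 360 to 849 CPM). Sinusoidal endothelial markers overlapped narrowly (547 to 604 and 601 to 640 CPM), and pericyte markers overlapped too (517 to 768 and 675 to 838 CPM). Their part in the bulk results was not tested.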

How the data were processed

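The members and gene lists were chosen with earlier results of these data known. In the deposited single-cell matrices each value is a raw UMI count. Cluster numbers and the mitochondrial fraction per cell are the authors', copied from their deposited metadata. For bulk, the values are unnormalised read counts by Ensembl ID, as the deposited whole numbers show. Cell Ranger 6.0.0, STAR 2.5.3a and Trim Galore were used with mm10, per the submitters' processing notes. A stranded total RNA kit (bulk) and droplet 3′ chemistry (cells) are named per the labels' protocols. The read counter, its strand setting, the annotation and the sort gates were not stated in any source at hand.

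UMIs were summed over the selected cells of each library and scaled to CPM. Log2 ratios carry exact conditional binomial intervals (95%), and shares of cells exact Clopper-Pearson intervals; UMIs remove PCR copies, and the intervals cover counting error only. Genes with a mean of at least 10 CPM were compared (8980), and 1.5-fold was the threshold for counts. The named genes are the selection genes and markers, the 15 highest and lowest by the interval bound nearest 0 at 20 CPM or more, up to 5 per list and direction, the niche factors at 20 CPM or more, 8 per direction that differ most between cells below and above the threshold, and the most abundant marker of each other cell type. Doublets were called with Scrublet (scanpy 1.11.5) and left in.

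The bulk groups, read from titles, were compared with edgeR 4.0.16 in R 4.3.3 (TMM, filterByExpr, robust quasi-likelihood fit, Benjamini-Hochberg, 0.05) on 16317 genes; bulk CPM are TMM-normalised. DESeq2 1.42.0, no filter, a replicate block and leaving out each library were alternatives. All 228 named genes were matched to Ensembl genes, 226 by symbol and 2 by synonym. Both analyses were tested on simulated data. Positions are from GENCODE M21 and promoters from the RefSeq table for GRCm38.p6. The progenitor libraries were not analysed here beyond the count of their cells. One named gene is not reported here.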

Additional observations from a re-analysis of the deposited data

Results flagged for a closer look

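Among 92 groups of 4 bulk libraries examined (46 named genes in 2 groups), 3 had a library far from the other three, where chance alone gives about 1 in 20. Serpina3n was at 299 CPM in Py230 replicate 1 and at 38.6 to 69.5 CPM in the other Py230 libraries. Mgp was at 1519 CPM in the same library and at 579 to 716 CPM in the others, and it kept its call without that library. Hspa1a was at 183 CPM in control replicate 4 and at 84.0 to 100 CPM in the other controls.

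More named genes than these had ratios of opposite sign in the selected cells and in the LepR+ cells above the threshold. In 3 of them both counting intervals also excluded 0, and at least 1 of the ratios was past 1.5-fold; the difference between them was not tested. Spp1, osteopontin, had a log2 ratio of 0.20 in the selected cells and −0.93 above the threshold. Ppm1n, a protein phosphatase gene, had 1.64 and −0.68, from 20 WT and 76 PyMT UMIs in the selected cells. The long non-coding RNA Snhg11 had 0.69 and −0.56.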

How the results depend on the processing

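Counts of genes past 1.5-fold (1151 higher, 350 lower) stayed within 1.5 times under the wider stress score, weighting of PyMT cells to the WT shares, no cell filter, only cells with a Lepr UMI, no doublets, means of per-cell CPM, each library's own median share and CPM without mitochondrial, ribosomal and selection genes, and in 2 alternatives chosen after seeing the data (without Gm42418 and Lars2, and without cells with pericyte or osteoblast UMIs). They moved with median-of-ratios scaling (558 higher, 683 lower), no low-value filter (2742 and 1509), a mean of at least 50 CPM (297 and 105) and the 36 WT and 19 PyMT cells with no selection UMI (2759 and 1340). The count lower moved to 626 at the WT lower quartile of the share and to 596 with cells thinned to 2000 UMIs. The cause was not tested, except that fewer genes or cells enter some of these.

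Reversed were Il6 at the lower quartile (−0.75), Ccl7 at each library's own median share (0.10) and, in the cells with no selection UMI, 10 genes, among them Acvr2a (0.92), Birc3 (−0.13), Ccn2 (−0.032), Fabp4 (1.68), Hpgd (−0.079), Hspa1a (−1.23), Hspa1b (−0.49), Hspd1 (−0.29) and Srgn (−0.49). Leaving those few cells aside, 117 of 119 named genes past 1.5-fold kept their direction under the other 13 alternatives, but 355 of 2884 values over 222 named genes lay outside the gene's main counting interval, most often with median-of-ratios scaling (85 genes), at the lower quartile (78) and at each library's own median (76). Hspa1b ranged from 0.12 to 1.14 and Angptl4 from −1.29 to −0.46.

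In bulk, leaving out 1 library gave 134 to 304 genes higher and 230 to 426 lower; the count higher moved by over 1.5 times without control replicate 1, 2 or 3 or Py230 replicate 2 (147, 134, 188 and 181), and the count lower without control replicate 1 or 2 or Py230 replicate 2 (230, 260 and 276). The replicate numbers gave no pairing (correlations of same-numbered libraries −0.39, −0.13, −0.20 and 0.02), and with the replicate block 176 genes were higher and 237 lower.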

Other observations

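The selected cells held further groups that differed between the libraries. Pla1a, a phospholipase, was at 126 and 50.6 CPM in WT and PyMT cells (log2 ratio −1.31), and Kcnk2, a potassium channel, at 85.9 and 32.9 CPM (−1.39). The histone gene Hist1h2bc was at 178 and 47.7 CPM (−1.90, −2.22 to −1.60). Tmem86a was at 87.9 and 235 CPM (1.42). In the IGF system the protease Pappa was at 890 and 526 CPM (−0.76) and the binding protein Igfbp4 at 3098 and 2114 CPM (−0.55), while Igfbp5, the most abundant of them, was at 10721 and 15026 CPM (0.49).

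Several genes differed in size between the cells below and above the threshold. The chemokine genes Cxcl9 and Cxcl10, which interferon induces, had log2 ratios of −0.84 and −0.26 in the selected cells and −1.39 and −1.68 above the threshold, with 77.8% and 87.5% of their PyMT UMIs in 5 selected cells. The globin genes Hbb-bs and Hba-a1 were at −1.14 and −0.83 in the selected cells and −3.03 and −2.62 above the threshold. Tnfaip3, an inhibitor of NF-kB signalling, was at −0.29 and 0.89. These values share 1 library per genotype and were not tested.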
